A study of Homo sapiens with 9 samples.

Results

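The genes described here are LIN28B, the 3 IGF2BP paralogs IGF2BP1, IGF2BP2 and IGF2BP3, the high mobility group AT-hook genes HMGA1 and HMGA2, and DIS3L2. They are 7 of the 58735 genes in the count table. The 7 were chosen by name as a let-7 linked oncofetal set, and the set was proposed with the fold changes of the NFATC2 shRNAs over control in view. Their values against control are therefore a description and carry no test. All 7 are in the count table, and 6 passed the low-count filter, the exception being HMGA2.

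Polyadenylated RNA was sequenced from THP-1 cells, an established human acute myeloid leukaemia line of monocytic character that carries the MLL-AF9 fusion. All cells received lentivirus made in 293T cells by spinoculation and puromycin at 24 hours, and RNA was taken at 48 hours. There were 3 libraries with shRNA-146 and 3 with shRNA-143, both directed at the transcription factor gene NFATC2, and 3 with a non-targeting control shRNA. The series calls the replicates biological, but nothing given says that they were separate cultures, so p-values cover only how far these libraries spread, which could be technical. In bulk RNA, fewer cells expressing a gene and less RNA per cell cannot be told apart.

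LIN28B is an RNA-binding protein that binds let-7 precursors and blocks their maturation, and it is known in blood for its part in fetal-type haematopoiesis. Mature let-7 in turn represses mRNAs with seed matches in their 3′ UTRs, among them LIN28B itself, HMGA2 and IGF2BP1, which makes a double-negative loop. IGF2BP proteins bind and stabilise mRNAs and read N6-methyladenosine, HMGA proteins bend AT-rich DNA in chromatin, and DIS3L2 is the exoribonuclease that degrades the uridylated let-7 precursors left by LIN28 proteins. MicroRNAs themselves were not measured in these polyadenylated RNA libraries.

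The link between the genes is the let-7 seed, and 4 of the human family members are shown to make it visible. Capitals mark bases 2 to 8, GAGGUAG, which 11 mature names from 14 loci in the RefSeq table (GRCh38.p14) share.
hsa-let-7a-5p: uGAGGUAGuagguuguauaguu
hsa-let-7b-5p: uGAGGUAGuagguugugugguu
hsa-let-7g-5p: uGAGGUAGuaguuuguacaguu
hsa-miR-98-5p: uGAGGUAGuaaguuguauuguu

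Sites complementary to that seed, CTACCTC, were looked for on the transcript strand of 1 annotated 3′ UTR per gene (GENCODE 29, hg38), and CTACCTCA was counted as an 8-base match, which is also a CTACCTC match. Of 19128 genes with a 3′ UTR, 1634 (8.54%) held at least 1 CTACCTC. LIN28B held 4 matches in 4549 bases, 2 of them of 8 bases. IGF2BP1 held 4 in 6206 bases, 3 of them of 8 bases. HMGA2 held 4 in 3003 bases, 1 of them of 8 bases. IGF2BP2 and IGF2BP3 held 1 each, both of 8 bases, in 1792 and 2153 bases. HMGA1 held 1 shorter match in 1347 bases, and these letters are not in the 567 bases of DIS3L2. Long UTRs hold more matches: among the 727 to 2543 genes with a UTR of similar length (the shorter at least 80% of the longer), 23.5% had a match for LIN28B, 29.8% for IGF2BP1, 14.7% for HMGA2, 11.6% for IGF2BP2, 11.8% for IGF2BP3, 8.42% for HMGA1 and 3.3% for DIS3L2. The following windows show the 8-base matches of LIN28B and IGF2BP1 and the first match of the other 4 genes that have any, with the match in capitals, 5′ to 3′ on the transcript strand.
LIN28B, chr6:105078813-105078835, plus strand: cccggttgcaaagtCTACCTCAt
LIN28B, chr6:105081422-105081444, plus strand: tttacagcaaaaggCTACCTCAt
IGF2BP1, chr17:49051062-49051084, plus strand: gtgtgcgaagtaaaCTACCTCAa
IGF2BP1, chr17:49053699-49053721, plus strand: agcagtgctagtaaCTACCTCAc
IGF2BP1, chr17:49054353-49054375, plus strand: tataaatggattaaCTACCTCAa
IGF2BP2, chr3:185644219-185644241, minus strand: acacacagaagaagCTACCTCAg
IGF2BP3, chr7:23311794-23311816, minus strand: gcatttttactcaaCTACCTCAg
HMGA1, chr6:34245830-34245852, plus strand: cctctgttcacaaaCTACCTCtg
HMGA2, chr12:65963299-65963321, plus strand: ccaacgttcgatttCTACCTCAg
A match is a description of the sequence and does not show that the site is used.

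Library totals were 40047459 to 44669709 counts, and 14975 genes were tested. NFATC2, the gene the shRNAs target, had 102, 327 and 451 counts in the shRNA-146 libraries and 58, 357 and 318 in the shRNA-143 libraries, against 470, 1161 and 1006 in the control libraries. Every shRNA library was below every control library. The libraries numbered 1 stood apart from those numbered 2 and 3 in all 3 groups, in NFATC2 too, and same-numbered libraries deviated together. Values are therefore given from 2 fits, without and with the library number as a block, the first being the planned one. Without the block, the log2 fold change of NFATC2 was -1.85 for shRNA-146 and -2.09 for shRNA-143. The adjusted p in edgeR's quasi-likelihood test was 0.464 and 0.497, so the planned fit did not call the targeted gene. With the block the adjusted p of NFATC2 in that test was 0.00435 and 0.00168. All 10 monocytic markers were tested, and their summed level was 875 to 1239 CPM (library-scaled counts, TMM-adjusted) in shRNA-146 libraries and 1096 to 1222 in shRNA-143 libraries, against 1046 to 1110 in control libraries. The 293T lineage markers PAX2, NEFL and KRT19 were at 0 in all 9 libraries, and the summed level of the 9 listed markers was 90.8 to 157 CPM with shRNA-146 and 103 to 128 with shRNA-143, against 166 to 232 in control. The T cell markers CD3D, CD3E and CD2, the B cell marker MS4A1 and the erythroid marker ALAS2 were at 0 in all 9 libraries. The summed levels of the T cell, B cell and erythroid lists did not exceed 0.754, 40.9 and 0.0627 CPM in any library.

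LIN28B was higher with both shRNAs. The gene lies at chr6:104936616-105083332 on the plus strand (hg38) and has 6002 bases of annotated exons. It had 186.5, 123.7 and 126.2 CPM in shRNA-146 libraries 1 to 3 and 133.4, 117.5 and 132.9 CPM in shRNA-143 libraries, against 79.7, 87.0 and 91.0 CPM in control libraries. All 6 shRNA libraries were above all 3 control libraries, and shRNA-146 library 1 was the highest of the 9. The means were 145.5 ± 35.5 CPM with shRNA-146 and 127.9 ± 9.05 CPM with shRNA-143, against 85.9 ± 5.72 CPM in control (SD, n = 3 each). The log2 fold change was 0.76 ± 0.20 (SE) for shRNA-146 and 0.57 ± 0.20 for shRNA-143, or 0.74 ± 0.16 and 0.57 ± 0.16 with the block. Without shRNA-146 library 1, which held 7347 LIN28B counts, the first of these was 0.54. Within a number, the ratio of shRNA-146 to control was 2.34, 1.42 and 1.39, and that of shRNA-143 to control was 1.67, 1.35 and 1.46.

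DIS3L2 (chr2:231961245-232344350, plus strand, 11337 bases), whose product acts downstream of LIN28 proteins on let-7 precursors, varied with the library number. It had 7.36, 14.6 and 17.2 CPM in shRNA-146 libraries and 7.38, 13.8 and 15.1 CPM in shRNA-143 libraries, against 8.05, 12.995 and 11.4 CPM in control libraries. The groups overlapped, and the lowest library of each group was number 1. The log2 fold change with the block was 0.21 ± 0.17 (SE) for shRNA-146 and 0.12 ± 0.17 for shRNA-143. These values were 0.045 and -0.046 without control library 3, and 0.35 and 0.26 without control library 1. A processed pseudogene on the same strand, AC068134.3, overlaps 4.93% of its exon bases, and an antisense gene, AC019130.1, overlaps 0.45%. The counts of these overlapping genes were not checked. Of 13 other copies and antisense transcripts of the 7 genes that were listed, 11 are in the count table. None of these reached a mean of 10 counts.

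**Figure D1:**
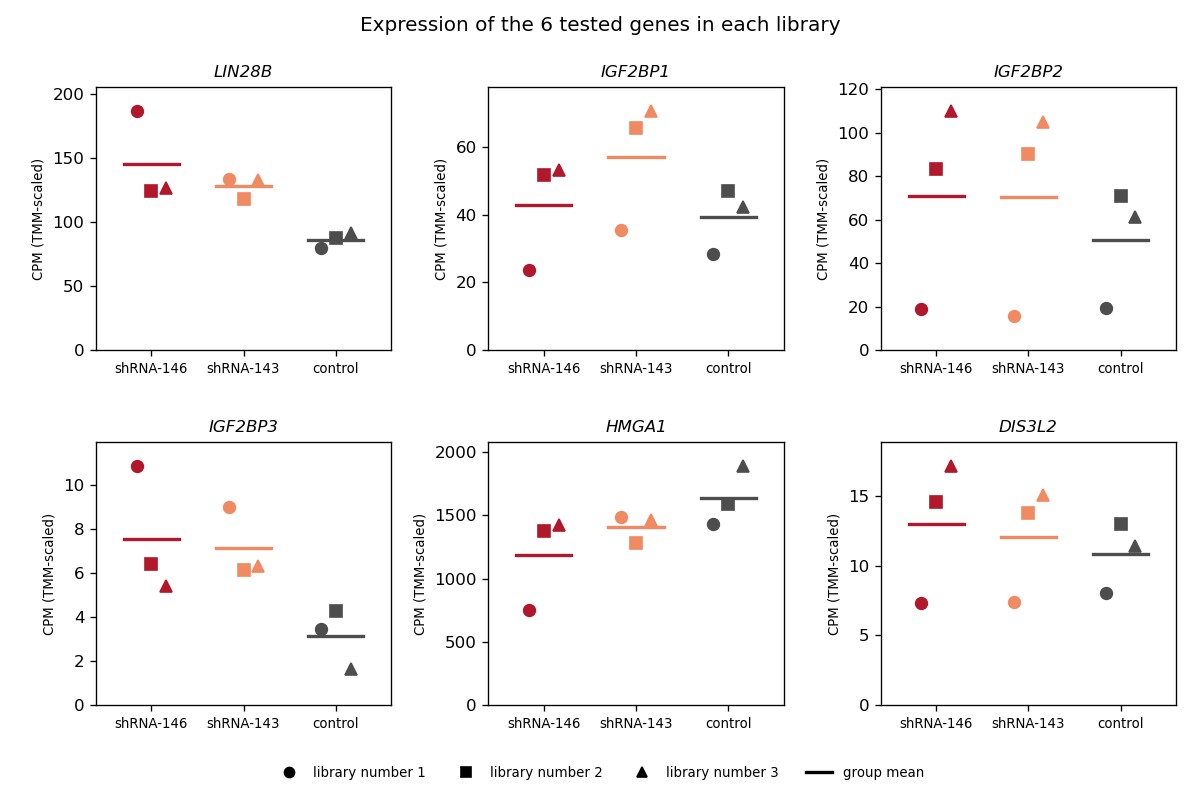
CPM after TMM scaling (y axis, from 0) of the 6 genes that passed the low-count filter, in each of the 9 libraries by group (x axis). Points are libraries, shapes their number and horizontal lines the means of 3 libraries. LIN28B and IGF2BP3 lie higher in all 6 shRNA libraries than in all 3 control libraries, while IGF2BP1, IGF2BP2 and DIS3L2 are lowest in the library numbered 1 of each group.

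The 3 IGF2BP paralogs differed from each other. IGF2BP3 (chr7:23310209-23470467, minus strand, 8511 bases) is the paralog known for high expression in leukaemias with KMT2A rearrangements. It was the least abundant of the 3 and had the greatest log2 fold changes over control among the 6 tested genes. It had 10.9, 6.44 and 5.39 CPM in shRNA-146 libraries (258 to 429 counts) and 8.999, 6.15 and 6.34 CPM in shRNA-143 libraries (290 to 351 counts), against 3.47, 4.28 and 1.63 CPM in control libraries (60 to 180 counts). Again all 6 shRNA libraries were above all 3 control libraries, and the libraries numbered 1 were the highest in both shRNA groups. The means were 7.57 ± 2.92 CPM with shRNA-146 and 7.16 ± 1.59 CPM with shRNA-143, against 3.13 ± 1.36 CPM in control (SD, n = 3 each). The log2 fold change was 1.27 ± 0.40 (SE) for shRNA-146 and 1.19 ± 0.40 for shRNA-143, or 1.27 ± 0.26 and 1.24 ± 0.26 with the block.

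Control libraries 2 and 3 bore on the size of that difference. Without the third control library the log2 fold changes with the block were 1.03 for shRNA-146 and 0.99 for shRNA-143, and without the second control library they were 1.68 and 1.64. Of the annotated IGF2BP3 exon bases, 17.9% lie under MALSU1 on the opposite strand, and no source used here gives whether counting used strand. MALSU1, which encodes a mitochondrial ribosome assembly factor and was looked up for this overlap, had 44.0, 27.1 and 28.6 CPM with shRNA-146 and 43.9, 24.9 and 30.2 CPM with shRNA-143, against 62.5, 33.8 and 51.1 CPM in control libraries. Its log2 fold changes with the block were -0.56 ± 0.14 and -0.58 ± 0.14. Its adjusted p in edgeR's quasi-likelihood test with the block was 0.0492 for shRNA-146 and 0.0511 for shRNA-143. The part of the overlap in the IGF2BP3 counts was not tested.

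IGF2BP1 (chr17:48997412-49055650, plus strand, 9109 bases), also known as IMP1 and the founding member of the family, had 23.7, 51.8 and 53.3 CPM in shRNA-146 libraries and 35.4, 65.6 and 70.7 CPM in shRNA-143 libraries, against 28.5, 47.1 and 42.3 CPM in control libraries. The groups overlapped, and every library numbered 1 was below every other library. Within each number, shRNA-143 was above control, with ratios of 1.24, 1.39 and 1.67. The ratios of shRNA-146 to control were 0.83, 1.101 and 1.26. The log2 fold change with the block was 0.07 ± 0.15 (SE) for shRNA-146 and 0.51 ± 0.15 for shRNA-143, and without it 0.13 ± 0.37 and 0.54 ± 0.37. With the block, the value for shRNA-146 was -0.055 without control library 3 and 0.20 without control library 1.

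IGF2BP2 (chr3:185643739-185825056, minus strand, 4735 bases), a paralog studied in metabolism and in leukaemia, varied most between library numbers. It had 18.9, 83.3 and 110.0 CPM in shRNA-146 libraries and 15.6, 90.0 and 105.1 CPM in shRNA-143 libraries, against 19.5, 70.7 and 61.1 CPM in control libraries. The 3 libraries numbered 1 lay at 15.6 to 19.5 CPM and the other 6 at 61.1 to 110.0 CPM, with no overlap. Within a number, the ratio of shRNA-146 to control was 0.97, 1.18 and 1.7996, and that of shRNA-143 to control 0.80, 1.27 and 1.72. The log2 fold change with the block was 0.33 ± 0.19 (SE) for shRNA-146 and 0.27 ± 0.19 for shRNA-143. These values were 0.09 and 0.02 without control library 3, and 0.58 and 0.51 without control library 1. Without the block its SE was 0.78 in both comparisons.

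HMGA1 (chr6:34236873-34246231, plus strand, 2327 bases) was the most abundant of the 7. It had 748.4, 1380 and 1424 CPM in shRNA-146 libraries and 1485, 1284 and 1464 CPM in shRNA-143 libraries, against 1433, 1594 and 1892 CPM in control libraries. The groups overlapped, and shRNA-146 library 1 was the lowest by far. Of the 6 shRNA libraries, 5 were below the control library of the same number, the exception being shRNA-143 library 1. The log2 fold change with the block was -0.49 ± 0.19 (SE) for shRNA-146 and -0.19 ± 0.19 for shRNA-143. Without shRNA-146 library 1 the first was -0.25. The second was -0.45 without shRNA-143 library 1 and -0.07 without shRNA-143 library 2.

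HMGA2 (chr12:65824131-65966295, plus strand, 15403 bases), the HMGA gene with the classical cluster of let-7 sites, was at or near background. It had 0, 6 and 8 counts in shRNA-146 libraries and 3, 7 and 4 in shRNA-143 libraries, against 4, 6 and 0 in control libraries. No group stood out at this depth. A count of 0 allows up to 0.0686 CPM in shRNA-146 library 1 and 0.0749 CPM in control library 3 (3 counts per library, counting error only).

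In the authors' deposited tables, the log2 fold change over control was 0.77 for LIN28B with shRNA-146 and 0.59 with shRNA-143. For IGF2BP3 the authors' deposited tables give 1.28 with shRNA-146 and 1.20 with shRNA-143. The authors' deposited adjusted p was 0.137 or more for all 7 genes in both tables.

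How many of the 6 tested genes passed against control follows from how the set was proposed and is given without a reading. In edgeR's quasi-likelihood test at an adjusted p under 0.05, 0 of 6 passed for either shRNA without the block, where 0.0334% of all tested genes passed for shRNA-146 and 0.0467% for shRNA-143. At an unadjusted p under 0.05, 2 of the 6 passed for each shRNA, where 8.81% of all tested genes did for shRNA-146 and 6.8% for shRNA-143. DESeq2 without the block called 0 of 6 for each, and 0.844% and 0.781% of the genes it tested. With the block DESeq2 called 2 of 6 for shRNA-146 and 3 of 6 for shRNA-143, and 10.5% and 8.02% of the genes it tested. With the block, 2 of 6 passed for shRNA-146 (LIN28B and IGF2BP3), where 4.42% of all tested genes passed, and 1 of 6 for shRNA-143 (IGF2BP3), where 3.17% did. LIN28B and IGF2BP3 were the 2 of 6 with every shRNA library above every control library, an arrangement that 3.08% of all tested genes had. The reverse, every shRNA library below every control library, held for 0 of 6 and for 2.77% of all tested genes. The same 2 genes were above the same-numbered control library in all 6 shRNA libraries, as were 12.4% of all tested genes. Both comparisons use the same 3 control libraries.

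**Figure D2:**
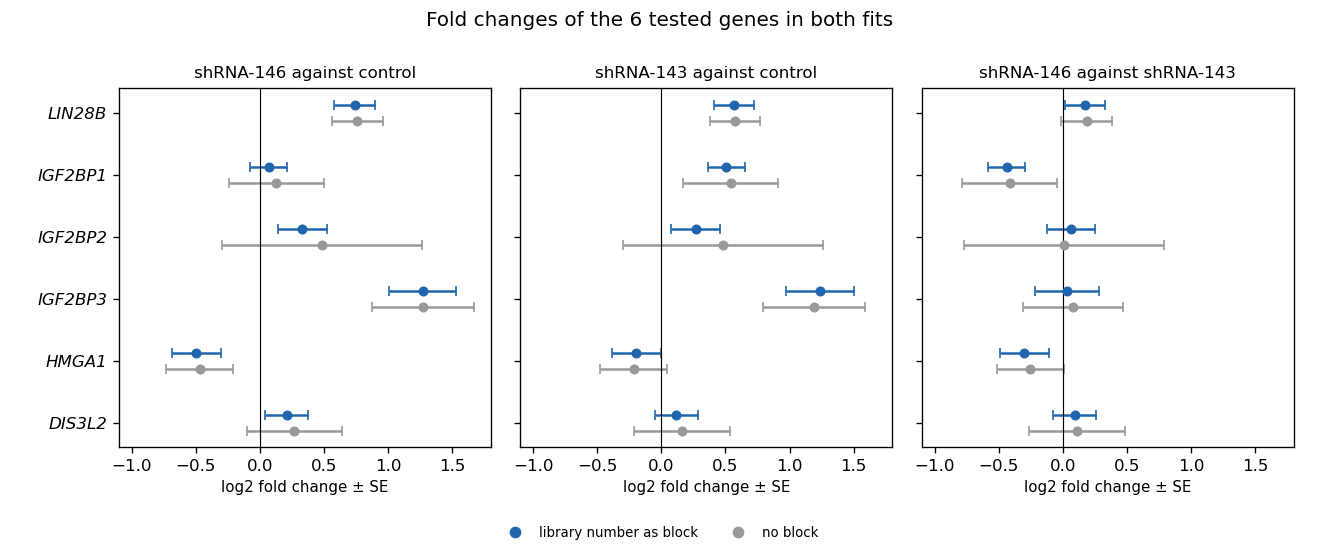
Log2 fold changes with their SE (x axis) of the 6 tested genes (y axis) in the 3 comparisons, from the fit with the library number as a block (blue) and without it (grey). All genes but HMGA1 have fold changes above 0 in both comparisons with control, those of IGF2BP3 and LIN28B being the highest. HMGA1 lies below 0, and the SE of IGF2BP2 is 0.78 without the block against 0.19 with it.

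Per length, the order of the levels over the 9 libraries was HMGA1, LIN28B, IGF2BP2, IGF2BP1, DIS3L2, IGF2BP3 and HMGA2. HMGA1 averaged 606.6 CPM per kilobase, a level above that of 99.5% of the tested genes. LIN28B averaged 19.96 CPM per kilobase (above 85.7%), IGF2BP2 13.5 (above 80.2%) and IGF2BP1 5.10 (above 63.5%). DIS3L2 averaged 1.06 CPM per kilobase (above 35.4%), IGF2BP3 0.70 (above 29.4%) and HMGA2 0.006. Neighbours whose ranges over the libraries overlapped were LIN28B (13.3 to 31.1 CPM per kilobase) and IGF2BP2 (3.30 to 23.2), IGF2BP2 and IGF2BP1 (2.602 to 7.76), and DIS3L2 (0.65 to 1.52) and IGF2BP3 (0.19 to 1.28). HMGA1, the step between IGF2BP1 and DIS3L2, and HMGA2 were separated from their neighbours in all 9 libraries.

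**Figure D3:**
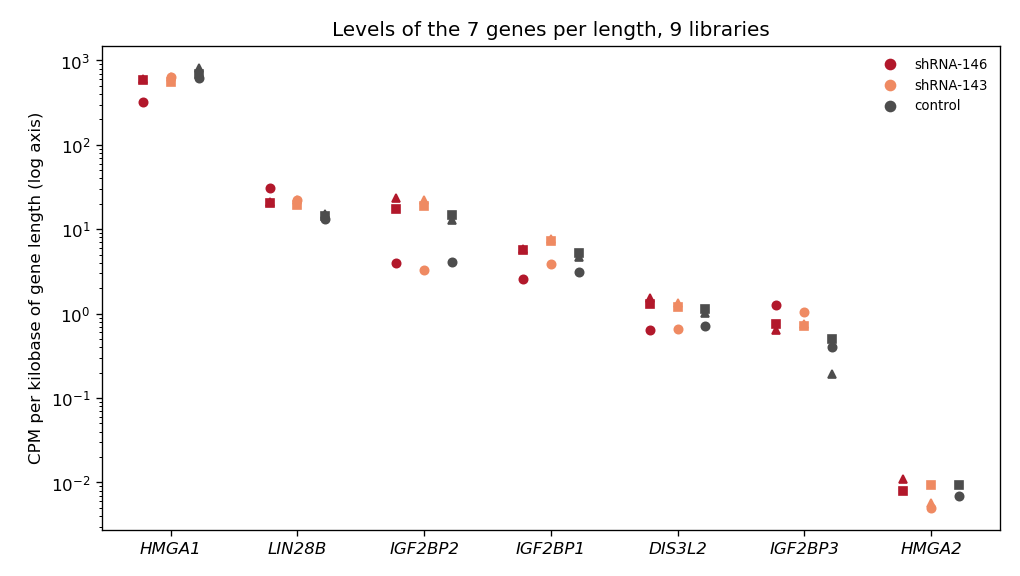
Level per gene length in CPM per kilobase (y axis, log scale) of the 7 genes (x axis, in order of their mean), with 1 point per library, coloured by group and shaped by library number. HMGA1 lies at 322 to 813 and HMGA2 at 0.011 or less, and the 2 libraries with 0 HMGA2 counts are not drawn because a log axis has no 0.

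The comparison of shRNA-146 with shRNA-143 uses no control library. It is the difference of the fold changes over control that were in view when the set was proposed. It is therefore not independent of that choice, and p-values and intervals for these genes are given as a description. In edgeR's quasi-likelihood test 0 of 6 passed without the block, where 0.0467% of all tested genes passed, and 0 of 6 with it, where 1.2% did. At an unadjusted p under 0.05 the counts were 0 of 6 without the block and 1 of 6 with it, where 3.75% and 10.4% of all tested genes were. DESeq2 called 0 of 6 in both designs, and 0.379% and 1.69% of the genes it tested. The 1 gene is near the share of all genes. It was IGF2BP1, which was lower with shRNA-146 than with shRNA-143 in 3 of 3 numbers, with ratios of 0.67, 0.79 and 0.75. Its log2 difference with the block was -0.44 ± 0.14 (SE), with a 95% interval of -0.76 to -0.12 and an adjusted p of 0.265 in edgeR's test. For LIN28B the difference with the block was 0.17 ± 0.16 (95% interval -0.18 to 0.52). It turned to -0.04 without shRNA-146 library 1. IGF2BP3 differed by 0.03 ± 0.25 (-0.52 to 0.59), IGF2BP2 by 0.06 ± 0.19 (-0.35 to 0.48) and DIS3L2 by 0.09 ± 0.17 (-0.28 to 0.46). HMGA1 differed by -0.30 ± 0.19 (-0.73 to 0.13), and by -0.03 without shRNA-146 library 1. These intervals leave room for differences of either sign in each of these 5 genes.

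IGF2BP1, IGF2BP2 and DIS3L2 had larger log2 differences between library numbers than between either shRNA and control, while LIN28B and IGF2BP3 had smaller ones. The contrast of numbers was added after the libraries numbered 1 were seen to stand apart, and it was taken from the fit with the block, as the libraries numbered 1 minus the mean of those numbered 2 and 3. IGF2BP2 averaged 18.0 CPM in libraries numbered 1 and 86.7 CPM in the others, a log2 difference of -2.24 ± 0.19 (SE; adjusted p 6.12e-05 in edgeR's quasi-likelihood test). IGF2BP1 differed by -0.91 ± 0.13 (adjusted p 0.000367) and DIS3L2 by -0.89 ± 0.15 (adjusted p 0.000932). IGF2BP3 went the other way, at 0.58 ± 0.22 (adjusted p 0.0445 in edgeR's test). LIN28B differed by 0.18 ± 0.14 and HMGA1 by -0.34 ± 0.17, and neither passed. So 4 of 6 passed, where 49.6% of all tested genes passed (3592 higher and 3837 lower). No label says what the number stands for.

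Gene length moved with the library number. Over 5 bins of 2995 tested genes by length, the median log2 difference of libraries numbered 1 was 0.26, 0.13, 0.03, -0.11 and -0.34, in order from the shortest bin (up to 2312 bases) to the longest (7763 bases or more). The median log2 fold change over control with the block was -0.22 in the shortest bin and 0.21 in the longest for shRNA-146, and -0.20 and 0.16 for shRNA-143. LIN28B, IGF2BP1, IGF2BP2, IGF2BP3 and DIS3L2 are longer than the median tested gene of 4550 bases, and HMGA1 is shorter. The part of length in their fold changes was not tested.

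**Figure D4:**
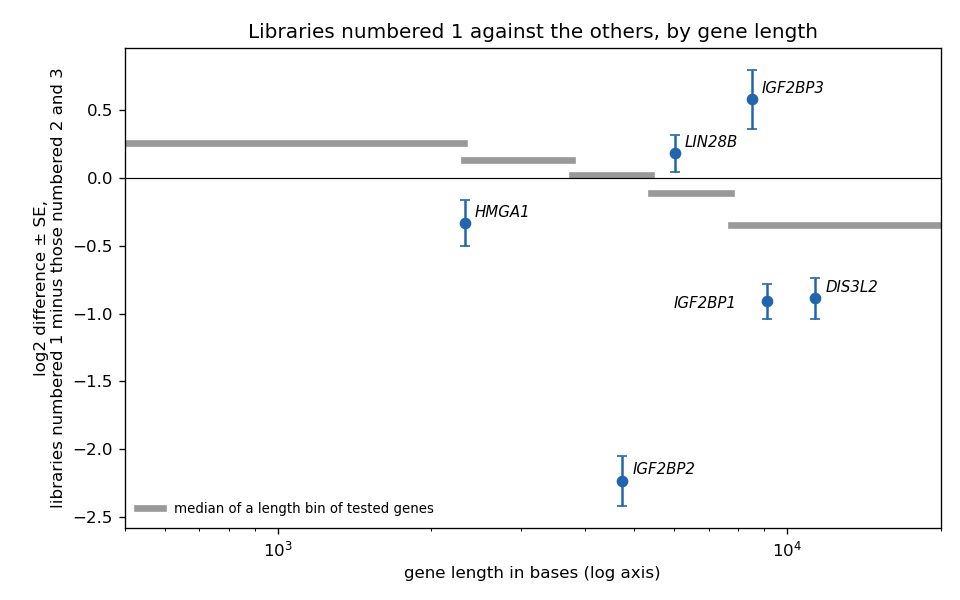
Log2 difference of libraries numbered 1 minus those numbered 2 and 3, with its SE (y axis), against annotated gene length in bases (x axis, log scale) for the 6 tested genes (blue). Grey bars are the medians of the 5 length bins of all tested genes, 0.26 in the shortest and -0.34 in the longest, and the outer bars run past the axis. IGF2BP2 lies at -2.24 and IGF2BP3 at 0.58.

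Across the 9 libraries, the 6 genes fell into patterns that follow these contrasts. The correlation of log2 CPM was 0.99 between IGF2BP2 and DIS3L2, 0.90 between IGF2BP1 and IGF2BP2 and 0.89 between IGF2BP1 and DIS3L2 (Pearson, 9 libraries). Between LIN28B and IGF2BP3 it was 0.82, and LIN28B and HMGA1 had -0.75. By rank (Spearman) the values for these pairs were 0.87 and -0.38. The library shRNA-146 number 1 was the highest in LIN28B and the lowest in HMGA1. Libraries share group and number, so these values describe the layout of the libraries. The gene whose log2 CPM was most like LIN28B over the 9 libraries was KCTD3 (0.98), followed by MAPKAPK5 (0.97). For IGF2BP3 they were RAB23 (0.98) and GGA2 (0.97), and for HMGA1 LRRC61 and SAC3D1 (both 0.98). For IGF2BP1 they were SREBF2 and AHRR (both 0.99), for IGF2BP2 URGCP (0.998) and SH3KBP1 (0.997) and for DIS3L2 PRKCD and GOLIM4 (both 0.996).

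Lists of other pathway genes were counted in edgeR's quasi-likelihood test over all tested genes, and without the block 0 list genes passed in any of the 3 comparisons. With the block, of 17 tested genes of let-7 processing and turnover, 2 rose with shRNA-146 and 1 with shRNA-143, and 0 fell, where 4.42% and 3.17% of all tested genes passed. At an unadjusted p under 0.05 the list had 6 higher and 2 lower genes for shRNA-146 and 3 higher and 0 lower for shRNA-143. Of all tested genes, 23.5% and 20.7% reached that p in either direction. AGO4, an Argonaute protein that carries microRNAs, rose with both. It had 20.4 to 27.4 CPM with shRNA-146 and 20.1 to 24.5 CPM with shRNA-143, against 12.7 to 17.6 CPM in control, and the ranges of the shRNA groups did not touch that of control. Its log2 fold changes were 0.65 ± 0.13 (SE; adjusted p 0.0243) and 0.56 ± 0.13 (adjusted p 0.0449). TRIM71, a stem cell RNA-binding protein that is itself a let-7 target, rose with shRNA-146 by 0.58 ± 0.13 (adjusted p 0.0364) and had -0.07 ± 0.13 with shRNA-143. The direct difference of 0.65 ± 0.13 between the shRNAs passed in edgeR's test (adjusted p 0.0431). The median log2 fold change of the list was 0.12 for shRNA-146 and 0.09 for shRNA-143, where that of all tested genes was 0.02 and 0.0045. Its tested genes are long, with a median of 7780 bases, and the longest length bin of all tested genes had medians of 0.21 and 0.16; the part of length here was not tested.

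The let-7 host transcripts gave no calls, and neither did the enzymes DICER1 and DROSHA. Of 7 host genes listed, 4 are in the count table under these names and 2 were tested, and 0 passed. HUWE1, which hosts let-7f-2 and miR-98 in an intron, had 0.45 ± 0.16 (SE; adjusted p 0.132 in edgeR's test with the block) with shRNA-146 and 0.46 ± 0.16 (adjusted p 0.153) with shRNA-143. It varied more with the library number, averaging 28.4 CPM in libraries numbered 1 and 81.9 CPM in the others. HUWE1 has 17380 bases, and the longest length bin of all tested genes had medians of 0.21 and 0.16. The part of length here was not tested. MIRLET7BHG, a host transcript of let-7b, averaged 0.84 CPM with shRNA-146 and 0.63 CPM with shRNA-143, against 0.99 CPM in control, with log2 fold changes of -0.29 ± 0.30 and -0.67 ± 0.31. DICER1 and DROSHA, the enzymes that cut microRNA precursors, were picked for their role outside the naming rule. DICER1 had 0.44 ± 0.18 (SE; adjusted p 0.178) and 0.40 ± 0.18 (adjusted p 0.243) in edgeR's test with the block, and DROSHA had 0.12 ± 0.14 and 0.11 ± 0.14.

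Among all tested genes, 4.42% passed for shRNA-146 and 3.17% for shRNA-143 with the block. Of 26 tested textbook let-7 targets, 2 rose with shRNA-146 and 0 fell, and 0 rose and 1 fell with shRNA-143 (with the block). At an unadjusted p under 0.05, 6 were higher and 1 lower with shRNA-146, and 7 higher and 5 lower with shRNA-143. Beside the 23.5% and 20.7% of all tested genes, the 7 of 26 for shRNA-146 are near the background. The 7 higher and 5 lower of 26 for shRNA-143 together exceed the 20.7%, and they go in both directions. The list's median log2 fold change was 0.24 for shRNA-146 and 0.06 for shRNA-143, where that of all tested genes was 0.02 and 0.0045. Its tested genes have a median length of 5958.5 bases, and the length bin of 5404 to 7761 bases had medians of 0.096 and 0.085. The part of length here was not tested. NR6A1, an orphan nuclear receptor of germ cells and embryos, had 6.07, 5.35 and 6.59 CPM with shRNA-146 and 2.69, 2.90 and 4.04 CPM with shRNA-143, against 1.86, 2.38 and 2.53 CPM in control. All 3 shRNA-146 libraries were above all others, and its log2 fold change was 1.42 ± 0.20 (SE; adjusted p 0.00613 in edgeR's test with the block). CCNJ, a cyclin, rose with shRNA-146 by 0.67 ± 0.14 (adjusted p 0.0278) and had 0.53 ± 0.14 (adjusted p 0.0697) with shRNA-143.

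RRM2, the small subunit of ribonucleotide reductase, separated the constructs. It had 215.3, 159.8 and 136.0 CPM with shRNA-146 and 70.3, 63.2 and 51.8 CPM with shRNA-143, against 146.7, 131.4 and 145.1 CPM in control. The 3 shRNA-143 libraries were below the other 6, and the shRNA-146 and control ranges overlapped. With the block, RRM2 fell with shRNA-143 by 1.21 on the log2 scale (SE 0.15; adjusted p 0.00287 in edgeR's test) and had 0.24 ± 0.14 with shRNA-146. The difference of shRNA-146 from shRNA-143 was 1.45 ± 0.15 (adjusted p 0.00109 in edgeR's test). MYC, an oncogene picked as a well-known target outside the naming rule, had -0.17 ± 0.12 with shRNA-146 and 0.01 ± 0.12 with shRNA-143.

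Genes with an annotated 3′ UTR were also grouped by let-7 seed match, a grouping added after the data were seen. The 464 tested genes with an 8-base match had a median log2 fold change with the block of 0.10 for shRNA-146 and 0.03 for shRNA-143. The 749 with a shorter match alone had 0.10 and 0.04. The 5497 unmatched genes with a 3′ UTR of at least 1000 bases had 0.11 and 0.07. Without the block these medians were 0.142, 0.129 and 0.1403 for shRNA-146 and 0.06, 0.07 and 0.09 for shRNA-143, in the same order of classes. Between the shRNAs they were 0.03, 0.04 and 0.03 with the block and 0.047, 0.046 and 0.0397 without it. The classes lay within 0.05 of each other in each comparison, and their order was not the same in all of them. With the block, 3.88% of the genes with an 8-base match rose and 1.51% fell with shRNA-146, where 4.44% and 1.53% of the unmatched genes with long UTRs did. With shRNA-143, 0.862% rose and 1.08% fell among those with an 8-base match, where 2.80% and 1.67% did among the unmatched.

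Genes tied to the IGF2BP proteins were counted in 3 lists, with the block, where 4.42% of all tested genes passed for shRNA-146, 3.17% for shRNA-143 and 1.2% between the shRNAs. Of 15 N6-methyladenosine writers, erasers and other readers, 0 passed in any comparison. FTO, a demethylase, had 0.48 ± 0.14 (SE; adjusted p 0.0761 in edgeR's test with the block) with shRNA-146 and 0.37 ± 0.14 (adjusted p 0.165) with shRNA-143. YTHDC2, a reader with helicase activity, had 0.53 ± 0.16 (adjusted p 0.0843) and 0.46 ± 0.16 (adjusted p 0.146). Of the 7 IGF2BP1 mRNP partners 0 passed against control. STAU1, a double-stranded RNA-binding protein, was higher with shRNA-146 than with shRNA-143 by 0.72 ± 0.14 (adjusted p 0.0390 in edgeR's test with the block). Of 8 tested mRNAs known as IGF2BP-bound, 1 passed. CTNNB1, which encodes beta-catenin, had 206.1, 206.8 and 192.7 CPM with shRNA-146 and 426.2, 440.7 and 433.6 CPM with shRNA-143, against 370.6, 370.4 and 304.3 CPM in control. The 3 groups did not overlap. CTNNB1 fell with shRNA-146 by 0.78 on the log2 scale (SE 0.12; adjusted p 0.00881) and had 0.32 ± 0.12 with shRNA-143 (adjusted p 0.17 in edgeR's test), and shRNA-146 differed from shRNA-143 by -1.104 ± 0.12 (adjusted p 0.00217).

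The other chromatin HMG genes had lower values on average. HMGA1 also had log2 fold changes below 0 with both shRNAs, but it did not pass and its groups overlapped. With the block, 4.42% of all tested genes passed for shRNA-146 and 3.17% for shRNA-143. Of 8 tested HMG box and HMGN genes, 2 fell with shRNA-146 and 1 with shRNA-143, and 0 rose. At an unadjusted p under 0.05, 6 were lower with shRNA-146 and 3 with shRNA-143, and 0 higher, where 23.5% and 20.7% of all tested genes reached that p in either direction. The median log2 fold change of the list was -0.45 and -0.28. These are mostly short transcripts, with a median length of 2642 bases, and the shortest length bin of all tested genes had medians of -0.22 and -0.20; the part of length in these values was not tested. HMGN2, a nucleosome-binding protein, had 988 to 1185 CPM with shRNA-146 and 880 to 1256 CPM with shRNA-143, against 1389 to 1762 CPM in control, and all 6 shRNA libraries were below all 3 control libraries. It fell by 0.56 on the log2 scale with shRNA-146 (adjusted p 0.0469) and by 0.68 with shRNA-143 (adjusted p 0.0296 in edgeR's test with the block). HMGB2, a DNA-bending protein of dividing cells, fell by 0.48 with shRNA-146 (SE 0.12; adjusted p 0.0486) and had -0.14 ± 0.12 with shRNA-143.

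Of 16 other oncofetal and fetal blood genes, 4 were tested and 1 passed with the block. Shares of all tested genes that passed were 4.42% for shRNA-146, 3.17% for shRNA-143 and 1.2% between the shRNAs. TPBG, an oncofetal antigen of trophoblast, had 9.34, 9.74 and 8.97 CPM with shRNA-146 and 4.72, 5.08 and 4.41 CPM with shRNA-143, against 8.32, 7.89 and 7.76 CPM in control. It fell with shRNA-143 by 0.76 on the log2 scale (SE 0.16; adjusted p 0.0329 in edgeR's test with the block) and had 0.23 ± 0.16 with shRNA-146. The difference between the shRNAs was 0.98 ± 0.16 (adjusted p 0.0137). Of 7 relatives of DIS3L2 and other exoribonucleases, 0 passed against control. ERI1, which trims histone mRNA and rRNA ends, was lower with shRNA-146 than with shRNA-143 by 0.76 on the log2 scale (-0.76 ± 0.15; adjusted p 0.0422 in edgeR's test with the block).

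Many of these calls rest on all 9 libraries being in the fit with the block. When each library was left out in turn, RRM2 with shRNA-143, and RRM2 and CTNNB1 between the shRNAs, passed in 9 of 9 fits. NR6A1 and CTNNB1 with shRNA-146 passed in 8 of 9, the exception being the fit without control library 2. TPBG between the shRNAs passed in 4 of 9, and CCNJ with shRNA-146 and HMGN2 with shRNA-143 in 3 of 9. AGO4 with either shRNA, TRIM71 with shRNA-146, TPBG with shRNA-143, and STAU1 and ERI1 between the shRNAs passed in 2 of 9. HMGB2 with shRNA-146 and TRIM71 between the shRNAs passed in 1 of 9, the fit without shRNA-146 library 1, and HMGN2 with shRNA-146 in 0 of 9.

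**Figure D5:**
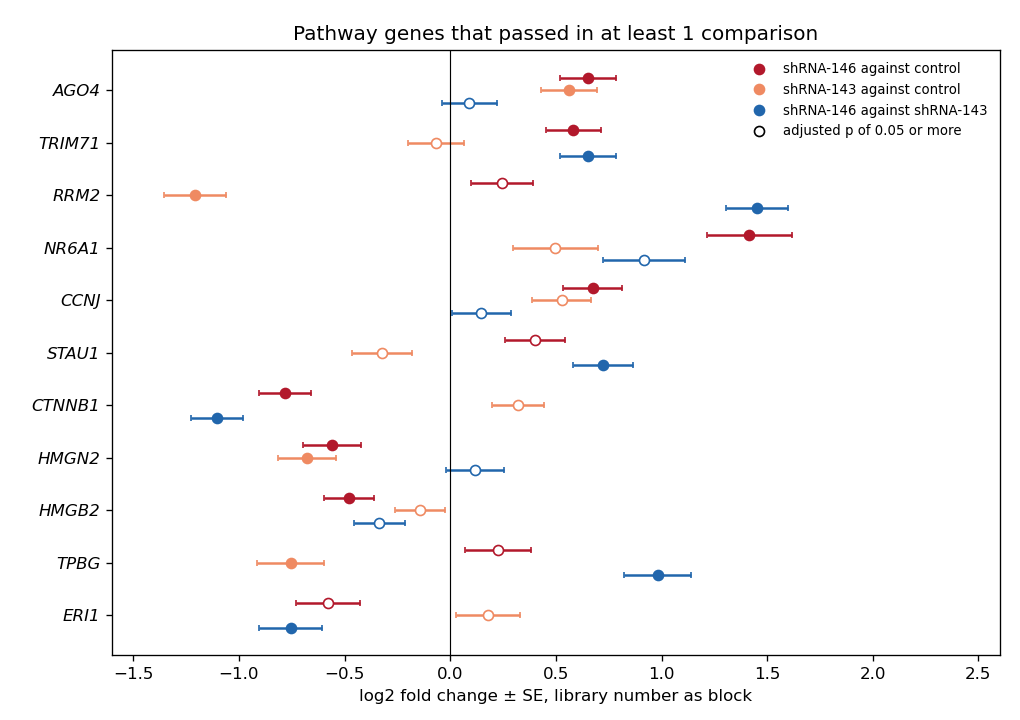
Log2 fold changes with their SE (x axis), from the fit with the library number as a block, of the 11 pathway genes that passed in at least 1 comparison (y axis). Colours give the comparison and open points did not pass at an adjusted p under 0.05. RRM2, TPBG, STAU1 and TRIM71 lie above 0 and CTNNB1 and ERI1 below 0 in the filled blue points for shRNA-146 against shRNA-143.

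Promoter windows are shown for LIN28B and IGF2BP3 because these genes had no overlap between shRNA and control libraries and NFAT proteins are known to bind GGAAA. RefSeq windows (GRCh38.p14, 250 bases before to 50 after a start) matched 5 of the 7 genes, with 8 windows. GGAAA on either strand, written as GGAAA or TTTCC and marked in capitals, occurred in 61.2% of 35116 windows. IGF2BP3 held 2 matches, the first LIN28B start 0 and the second 1. The 2 windows of IGF2BP2 held 0 and 2 matches, those of HMGA1 0 and 3, and that of DIS3L2 0.
IGF2BP3, chr7:23470442-23470741, minus strand: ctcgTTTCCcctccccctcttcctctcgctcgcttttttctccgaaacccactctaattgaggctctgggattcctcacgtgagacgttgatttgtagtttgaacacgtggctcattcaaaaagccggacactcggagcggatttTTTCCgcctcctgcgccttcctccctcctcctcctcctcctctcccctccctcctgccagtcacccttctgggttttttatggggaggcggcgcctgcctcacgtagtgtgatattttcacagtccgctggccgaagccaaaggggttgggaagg
LIN28B, first start, chr6:104940715-104941014, plus strand: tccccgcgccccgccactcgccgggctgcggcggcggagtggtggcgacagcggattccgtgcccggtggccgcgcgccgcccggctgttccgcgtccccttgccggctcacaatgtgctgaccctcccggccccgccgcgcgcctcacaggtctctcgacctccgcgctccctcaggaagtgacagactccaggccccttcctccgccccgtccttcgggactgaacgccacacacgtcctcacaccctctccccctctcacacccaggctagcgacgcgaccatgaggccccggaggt
LIN28B, second start, chr6:104956857-104957156, plus strand: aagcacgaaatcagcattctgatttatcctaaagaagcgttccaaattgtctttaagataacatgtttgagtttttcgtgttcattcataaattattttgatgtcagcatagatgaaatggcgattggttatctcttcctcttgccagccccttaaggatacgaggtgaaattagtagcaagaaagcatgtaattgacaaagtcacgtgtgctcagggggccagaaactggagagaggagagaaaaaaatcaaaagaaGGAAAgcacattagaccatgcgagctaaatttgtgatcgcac
A match is a description of the letters, and binding was not measured.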

How the data were processed

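RNA was measured in 9 libraries of THP-1 cells, 3 per group. The authors deposited raw counts per Ensembl gene, not pooled over replicates, and all 58735 identifiers are in GENCODE 29. Tools named in the submitters' processing notes, with no roles, are fastp, STAR 2.5, featureCounts and DESeq2, and the build is hg38. Per the file headers, the authors also deposited normalized signal, FPKM, log2 fold changes and p-values for each shRNA against control. The signal is a count divided by 1 size factor per library, the FPKM use the deposited gene length, and the test behind the deposited p-values is not stated. No source used here gives the strand setting of counting, so overlapping genes are uncertain.

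Counts were filtered with edgeR 4.0.16's filterByExpr (R 4.3.3), scaled by TMM and tested with its quasi-likelihood test in 1 fit of all 9 libraries, adjusted by Benjamini-Hochberg over 14975 genes at 0.05. CPM are after TMM scaling. The test was also run on simulated counts with a capped spread and no effect of library number. That run does not show how either fit performs on these libraries. Labels number the libraries 1 to 3 but do not say what a number shares. In log2 CPM, deviations from the group means correlated at 0.252 to 0.758 in all 9 pairs that share a number, above the criterion of 0.1, so the fit with the number as a block stands beside the main fit. Pairs that differ in number ran from -0.678 to 0.535. Those across numbers 2 and 3 were all above 0.1 too, so the criterion does not separate number 2 from number 3. For 9 of 9 libraries, the most correlated library of another group had the same number. The pairing comes from the data, not from the labels. Alternatives were other scalings, filters, DESeq2 1.42.0, the 6 libraries compared, and each library left out. Libraries of a group differed far beyond counting noise (chi-square per degree of freedom of 22.4 to 432), so none was counted as a library deposited again, though technical repeats can differ as much.

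The 7 genes and the gene lists were chosen with earlier results of these data known. Named list genes are those that passed in any comparison (up to 4 per list with the smallest p) or otherwise up to 2 with the smallest p, and the 2 genes most correlated with each member. MALSU1, DICER1, DROSHA and MYC were added outside that rule. From the marker lists, the rule names MPO, GAL, KRT8, CD8A, CD79A and CD79B, whose results stand among the other observations. Figures were drawn with matplotlib. Protein sequences were not used here.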

Additional observations from a re-analysis of the deposited data

Results flagged for a closer look

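The effects of the constructs differed in 6 pathway genes, each flagged because shRNA-146 and shRNA-143 differed from each other in edgeR's quasi-likelihood test with the library number as a block. As log2 values of shRNA-146 over shRNA-143, these were 1.45 for RRM2, 0.98 for TPBG, 0.72 for STAU1 and 0.65 for TRIM71, and -1.104 for CTNNB1 and -0.76 for ERI1. Adjusted p-values in edgeR's test were 0.00109 for RRM2, 0.00217 for CTNNB1, 0.0137 for TPBG, 0.0390 for STAU1, 0.0422 for ERI1 and 0.0431 for TRIM71. All 3 shRNA-146 libraries were above all 3 shRNA-143 libraries in RRM2, TPBG, STAU1 and TRIM71, and all 3 were below them in CTNNB1 and ERI1. With the block, 1.2% of all tested genes passed between the shRNAs. When each library was left out in turn from the fit with the block, RRM2 and CTNNB1 passed in 9 of 9 fits. TPBG passed in 4 of 9, STAU1 and ERI1 in 2 of 9 and TRIM71 in 1 of 9. Without the block none of the 6 passed. None of LIN28B, the IGF2BP genes, HMGA1 or DIS3L2 was among them. The cause of the differences was not tested. Groups of 3 libraries are too small for a check of single outlying libraries.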

How the results depend on the processing

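Counts of called genes depended on the design far more than on filters. The planned edgeR fit called 5 genes for shRNA-146 against control, 7 for shRNA-143 against control and 7 between the shRNAs, with 0 of the 6 tested set genes and 0 pathway list genes in each. With the replicate block the counts were 662, 474 and 179 genes, 2, 1 and 0 set genes, and 7, 4 and 6 list genes. Library size scaling gave 2, 16 and 10 genes, with 1 list gene each for shRNA-143 and between the shRNAs. With the replicate block as well it gave 835, 414 and 186 genes, 2, 1 and 0 set genes (LIN28B and IGF2BP3 for shRNA-146, LIN28B for shRNA-143), and 10, 5 and 4 list genes. That scaling moved the median log2 fold change of all genes for shRNA-146 to 0.19, where it was 0.05, and the split with the block to 679 higher and 156 lower, where it was 369 and 293. For shRNA-143 that split was 267 and 147, where it was 239 and 235. Between the shRNAs it was 135 and 51, where it was 116 and 63. DESeq2 called 120, 111 and 62 genes, 0 set genes and 2, 2 and 3 list genes. With the replicate block DESeq2 called 1385, 1011 and 405 genes, 2, 3 and 0 set genes (LIN28B and IGF2BP3 in both, and IGF2BP1 for shRNA-143), and 15, 8 and 7 list genes. Median-of-ratios scaling gave 3 genes for shRNA-146, without the low-count filter 1 list gene passed between the shRNAs, and the 6 libraries alone gave 0, 1 and 0 genes. Leaving out each library gave 0 to 3, 1 to 28 and 0 to 8 genes, 0 set genes, and 0, 0 to 1 and 0 list genes. With the replicate block, leaving out each library gave 27 (without control replicate 2) to 1745 (without shRNA-146 replicate 1) genes for shRNA-146. It gave 55 (without shRNA-143 replicate 3) to 2099 (without shRNA-146 replicate 1) for shRNA-143 and 31 (without shRNA-143 replicate 1) to 344 (without shRNA-146 replicate 1) between the shRNAs. Set genes then numbered 0 to 2, 0 to 3 and 0, and list genes 0 to 12, 1 to 18 and 2 to 7. Without control replicate 1 or 3, 0 set genes passed against control. Between the shRNAs some log2 differences changed sign. IGF2BP2 (0.009 as planned) was -0.00497 with median-of-ratios scaling and -0.00518 with DESeq2, and ran from -0.46 to 0.46 when leaving out each library and from -0.11 to 0.20 with the replicate block as well. The same ranges were -0.28 to 0.28 and -0.15 to 0.28 for IGF2BP3, -0.034 to 0.29 and -0.043 to 0.30 for LIN28B, and -0.15 to 0.39 and -0.032 to 0.19 for DIS3L2. Against control, signs changed when leaving out a library for DIS3L2 with shRNA-143 (-0.031 to 0.41, or -0.046 to 0.26 with the block) and for IGF2BP1 with shRNA-146 (-0.058 to 0.42, or -0.055 to 0.20). The cause was not tested. Levels per length moved by less than 1 SD with library size CPM and with the authors' FPKM. HMGA2, at 0 to 8 counts, is the gene that depth limits.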

Other observations

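Among marker genes, MPO, the myeloperoxidase of immature myeloid cells, fell by 0.82 on the log2 scale with shRNA-146 (SE 0.13; adjusted p 0.0107) and by 0.60 with shRNA-143 (SE 0.13; adjusted p 0.0372) in edgeR's test with the library number as a block. It was the 1 of 10 tested monocytic markers that passed against control, and none of the 10 passed without the block. GAL, which encodes the neuropeptide galanin and is on the 293T lineage list, averaged 122.5 CPM with shRNA-146 and 108.1 CPM with shRNA-143, against 192.4 CPM in control. It fell with shRNA-143 by 0.82 on the log2 scale (adjusted p 0.0438 in edgeR's test with the block), and with shRNA-146 its log2 fold change was -0.65 ± 0.19 (SE; adjusted p 0.0779). KRT8, a simple epithelial keratin on the same list, fell with shRNA-146 by 0.85 (SE 0.20; adjusted p 0.038). Of the tested T and B cell markers CD8A, CD79A and CD79B, 0 passed in any comparison.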
